A study of Mus musculus with 24 samples.

Results

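The comparison described here set 3 H3K27ac libraries of mice that had been fear conditioned after a vehicle injection (Veh-CFC) against 3 libraries of vehicle-injected mice that had explored the same chamber without shock (Veh-Context). Its 6 libraries were all the vehicle libraries among the 12 libraries with a count column, and every one of the 144154 peaks of the count table entered. H3K27ac is the acetylation of lysine 27 on histone H3, and its level was read by chromatin immunoprecipitation and sequencing (ChIP-seq) of nuclei sorted for the neuronal protein NeuN from the dentate gyrus. Sample titles name the hippocampus where the source names the dentate gyrus. The mice were 12-week-old C57BL/6J males (the strain label reads C57BL/6). Both groups received an intraperitoneal injection of 10% DMSO, 30% Kolliphor and 60% saline 1 h before the test, so no untreated mouse was in the comparison. Veh-CFC mice had 3 min of habituation and then 2 foot shocks of 1 s at 0.2 mA, Veh-Context mice stayed as long without shock, and all were killed 1 h later. The other 6 libraries, from mice given the deacetylase inhibitor CI-994 before the same 2 protocols (HDACi-CFC and HDACi-Context), were used for the shared estimate of spread and for a side-by-side reading. Cages were not mixed between protocols, and an effect of cage and an effect of shock cannot be told apart. Nothing in the labels says that the 3 libraries of a group came from separate mice, so p-values measure the spread between these libraries.

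As background, H3K27ac is written by acetyltransferases such as Ep300 and Crebbp and removed by histone deacetylases, and it accumulates on nucleosomes that flank active promoters and enhancers. The dentate gyrus is the entry stage of the hippocampal circuit, and its granule neurons are sparsely active during the encoding of a context. Neuronal activity and synaptic calcium entry switch on immediate early genes, which encode transcription factors (Fos, Egr1, Npas4) and synaptic effectors (Arc, Homer1), and these are followed by later genes that act at synapses.

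The 250 bases before the TSS of 6 genes are shown to place the promoter peaks described further on: Per1 and Junb, immediate early genes whose promoters rose; Neurod2 and Mamld1, with 2 of the largest promoter rises; Atf7ip, with a large promoter drop; and Atp5g1, whose promoter peaks on the 2 sides of the TSS moved apart. Sequences are from RefSeq (GRCm38.p6, the build mm10), 5′ to 3′ on the strand of the gene. The windows are chr11:69099902-69100151 (plus strand) for Per1, chr8:84978749-84978998 (minus) for Junb, chr11:98329646-98329895 (minus) for Neurod2, chrX:71050006-71050255 (plus) for Mamld1, chr6:136518601-136518850 (plus) for Atf7ip and chr11:96075632-96075881 (minus) for Atp5g1. Capitals mark matches, on either strand, to the CCAAT box, which reads ATTGG on the other strand, and to the E-box CACGTG. The cAMP response element TGACGTCA, the AP-1 site TGANTCA and the ETS site CCGGAAGT were searched too and were in none of the 6 windows.
Per1: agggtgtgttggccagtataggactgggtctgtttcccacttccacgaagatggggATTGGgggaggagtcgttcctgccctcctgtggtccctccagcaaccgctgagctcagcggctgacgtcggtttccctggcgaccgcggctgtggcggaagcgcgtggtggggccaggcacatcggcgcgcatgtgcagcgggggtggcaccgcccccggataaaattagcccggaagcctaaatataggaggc
Junb: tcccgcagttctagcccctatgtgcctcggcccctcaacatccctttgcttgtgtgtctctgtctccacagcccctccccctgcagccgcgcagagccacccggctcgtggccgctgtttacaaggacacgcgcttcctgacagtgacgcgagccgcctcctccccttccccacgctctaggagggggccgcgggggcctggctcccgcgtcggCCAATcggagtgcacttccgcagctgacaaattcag
Neurod2: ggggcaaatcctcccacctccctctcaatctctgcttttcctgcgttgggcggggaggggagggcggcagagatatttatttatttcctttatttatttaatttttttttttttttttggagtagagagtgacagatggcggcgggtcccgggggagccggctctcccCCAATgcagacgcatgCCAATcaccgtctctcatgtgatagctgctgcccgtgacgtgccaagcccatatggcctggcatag
Mamld1: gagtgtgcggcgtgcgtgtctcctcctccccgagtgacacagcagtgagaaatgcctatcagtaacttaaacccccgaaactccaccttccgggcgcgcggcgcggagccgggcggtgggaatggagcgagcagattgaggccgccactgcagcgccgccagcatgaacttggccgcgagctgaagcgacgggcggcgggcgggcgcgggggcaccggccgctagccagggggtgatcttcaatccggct
Atf7ip: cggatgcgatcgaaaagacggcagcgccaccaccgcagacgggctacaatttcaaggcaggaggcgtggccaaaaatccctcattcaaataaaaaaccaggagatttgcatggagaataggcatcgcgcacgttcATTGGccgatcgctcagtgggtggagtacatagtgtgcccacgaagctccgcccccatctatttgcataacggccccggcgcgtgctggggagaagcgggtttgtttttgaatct
Atp5g1: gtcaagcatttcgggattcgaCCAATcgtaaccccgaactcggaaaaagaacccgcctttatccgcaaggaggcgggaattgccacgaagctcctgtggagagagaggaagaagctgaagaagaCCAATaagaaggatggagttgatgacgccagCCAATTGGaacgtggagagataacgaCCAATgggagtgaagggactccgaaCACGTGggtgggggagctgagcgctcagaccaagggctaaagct
CCAAT boxes were in 5 of the 6 windows, with 5 matches in the Atp5g1 window, of which 2 overlap in CCAATTGG, and none in that of Mamld1. Over the first 250 bases, those before the start, of all 32851 RefSeq windows, 33.8% held a CCAAT box, 6.02% the E-box, 1.55% the cAMP response element, 6.75% the AP-1 site and 2.88% the ETS site. A match describes letters and not a bound site.

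Total counts in peaks were 13260955, 6639158 and 13711438 in Veh-Context replicates 1 to 3 and 7836555, 9666039 and 7222654 in Veh-CFC replicates 1 to 3. Veh-CFC replicate 1 stood apart. Its log2 levels correlated with the Veh-Context libraries at r = 0.847 to 0.887, whereas the other Veh-CFC libraries did so at r = 0.907 to 0.943. Counts without that library are given beside those of all libraries. Promoter peaks of 20 dentate granule neuron markers carried signal in every library. They summed to 1072, 979 and 1068 CPM (counts scaled to a common library size) in Veh-Context replicates 1 to 3. In Veh-CFC replicates 1 to 3 they summed to 1173, 1325 and 1421 CPM. Of these, the broad Prox1 promoter peak, at the gene of the granule neuron fate regulator, averaged 154 CPM in Veh-Context. Signal at markers of glia was also present, as described further on. In bulk nuclei, fewer cells of a type and less mark per cell cannot be told apart. With no spike-in value used here, a level is a share of its library's signal over peaks.

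Fear conditioning under vehicle was accompanied by higher H3K27ac at promoters and lower H3K27ac far from transcription start sites. A promoter peak was a peak with an edge within 1000 bp of the transcription start site (TSS) named beside it. Such peaks held 21.7%, 21.4% and 22.5% of counts in the 3 Veh-Context libraries and 26.7%, 25.7% and 24.9% in the 3 Veh-CFC libraries. The groups did not overlap, and the difference was 3.88 percentage points. The two-sided exact permutation p was 0.1, the smallest that 3 against 3 libraries allow (adjusted p = 0.133 over 4 summaries). Peaks over 100000 bp from a TSS moved the other way, from 19.2%, 18.7% and 18.4% of counts in Veh-Context to 14.4%, 16.1% and 16.8% in Veh-CFC. The 1000 highest peaks held 11.8% ± 0.431 of counts in Veh-Context and 13.1% ± 0.353 in Veh-CFC (SD, n = 3 each), again without overlap (exact permutation p = 0.1). Veh-Context replicate 2 had fewer counts than any Veh-CFC library and the lowest promoter share of the 6. Veh-Context replicates 1 and 3 had more counts than any Veh-CFC library. The part of total counts in these differences was not tested.

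**Figure D1:**
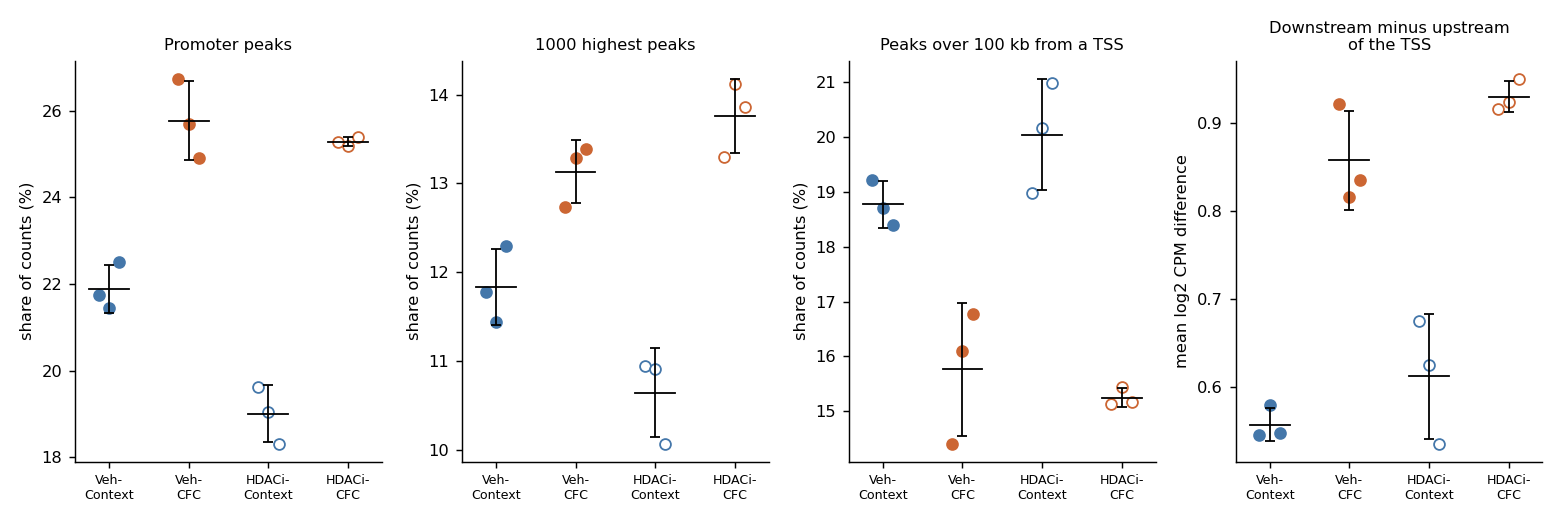
Each point is 1 library, lines are group means and bars are the SD (n = 3): share of counts (%) in promoter peaks, in the 1000 highest peaks and in peaks over 100 kb from a TSS, and the mean log2 CPM difference between the downstream and the upstream promoter peak of 4404 genes. In all 4 panels the vehicle groups (filled) do not overlap, with promoter shares of 21.4% to 22.5% in Veh-Context and 24.9% to 26.7% in Veh-CFC; the vertical axes do not start at 0.

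Peak by peak, edgeR's quasi-likelihood test with Benjamini-Hochberg adjustment (threshold 0.05) called 6354 of 144014 tested peaks higher in Veh-CFC (4.41%) and 3946 lower (2.74%). The median log2 change was 0.85 among the former and -0.70 among the latter. Without Veh-CFC replicate 1 the counts fell to 1103 and 350, and without Veh-Context replicate 1 to 1258 and 637. Without Veh-Context replicate 2 they were 3848 and 2262, without Veh-Context replicate 3 5760 and 2282, and without Veh-CFC replicate 2 4315 and 2385. All 10300 called peaks kept their sign in each of those fits. When libraries were scaled by their totals in place of TMM factors, 49.2% of the calls were higher in Veh-CFC, against 61.7% with TMM. A core of 724 higher peaks, 516 of them at promoters, and 210 lower peaks, 115 of them over 100 kb from a TSS, passed in every fit that left out 1 of the 12 libraries.

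**Figure D2:**
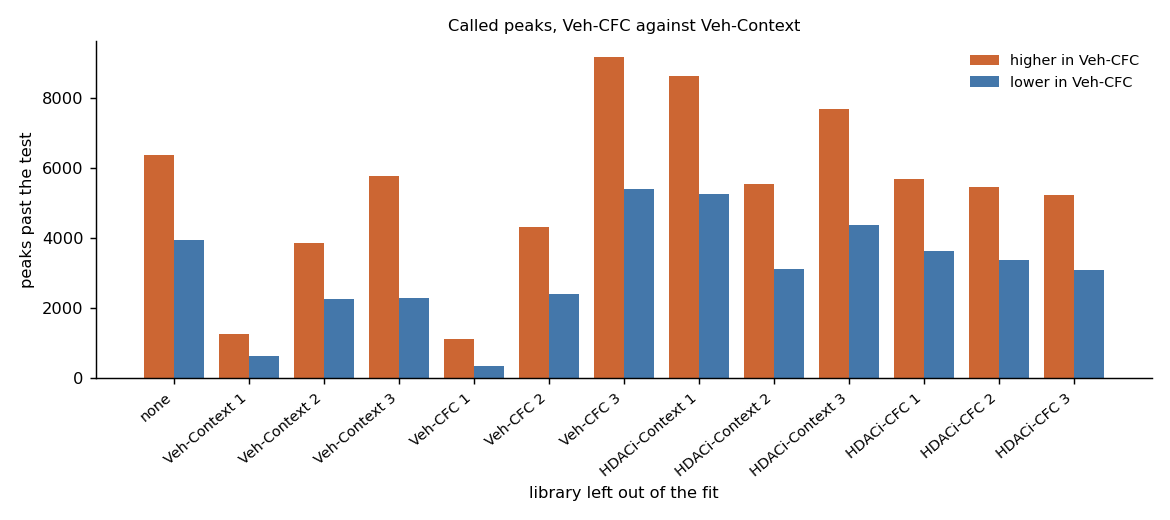
Bars count the peaks past the test (edgeR adjusted p under 0.05) that were higher or lower in Veh-CFC than in Veh-Context, with no library left out and with each of the 12 libraries left out in turn. The counts range from 1103 and 350 without Veh-CFC replicate 1 to 9153 and 5395 without Veh-CFC replicate 3.

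Among the 21487 promoter peaks tested, 3039 rose (14.1%) and 101 fell (0.47%), with a median log2 change of 0.25. Among the 122527 other peaks, 3315 rose (2.71%) and 3845 fell (3.14%), with a median of -0.05. Without Veh-CFC replicate 1 the promoter counts were 758 and 12, and without Veh-Context replicate 1 804 and 12. The share of rises went down with each step of distance from the TSS: it was 16.5% of peaks spanning a TSS, 7.24% at 1000 to 5000 bp, 1.74% in the class that ends at 100000 bp and 0.268% beyond 100000 bp. The share of drops was 0.677%, 0.854%, 2.76% and 7.18% in these 4 classes. Beyond 100000 bp, 1875 of 26122 peaks fell while 70 rose, with a median of -0.25. Without Veh-CFC replicate 1 those farthest peaks held 174 drops and 4 rises.

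Direction did not follow width in 1 order. Domains of 10000 bp or more, the broad stretches of acetylation found at genes highly used by a cell type, held 481 rises and 36 drops among 2345 peaks, against 271 rises and 50 drops among 13720 peaks of up to 500 bp. Their medians were 0.13 and 0.16. The 4 width classes between them had, from narrow to wide, 1113 rises and 458 drops (median 0.02), 1708 and 1468 (median -0.05), 2011 and 1638 (median -0.05), and 770 and 296 (median 0.03). Without Veh-CFC replicate 1 the broad domains held 183 rises and 4 drops.

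By the chromatin state deposited with each peak, strong promoters had 1960 rises and 83 drops among 15611 peaks (median 0.25), and active enhancers 2203 rises and 1319 drops among 41914 (median 0.00). Primed enhancers had 857 rises and 843 drops (median -0.05), and the state named control 1092 and 1633 (median -0.08). With promoter peaks set aside, active enhancers had 1531 rises and 1290 drops (median -0.02). Primed enhancers then had 459 rises and 833 drops (median -0.08). By annotation, exons (396 rises, 14 drops, median 0.37) and gene ends (331 rises, 11 drops, median 0.31) leaned up. Introns did so less (4098 and 1597, median 0.03), and peaks between genes leaned down (589 and 2225, median -0.16). Peaks annotated as promoter had 564 rises and 64 drops among 8194 (median 0.14), and 86 and 8 without Veh-CFC replicate 1. State and annotation classes include peaks counted here as promoter peaks. Without Veh-CFC replicate 1 strong promoters kept 474 rises and 7 drops, peaks between genes had 58 rises and 220 drops, and exons, gene ends and introns had 70 and 0, 47 and 0, and 778 and 119. Active enhancers then had 362 and 132, primed enhancers 148 and 76, and the control state 92 and 130. In that fit, with promoter peaks set aside, active enhancers had 175 and 129 and primed enhancers 45 and 75. By chromosome, on chromosome 11 the median change of 9982 peaks was 0.12 with 664 rises and 170 drops, on chromosome 3 that of 7224 peaks was -0.13 with 184 and 348, and on the X chromosome that of 2503 peaks was -0.18 with 65 and 79. These 3 chromosomes had, with Veh-CFC replicate 1 left out, 96 rises and 14 drops, 33 and 33, and 9 and 4. These are counts of peaks and carry no test, since peaks are not replicates.

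**Figure D3:**
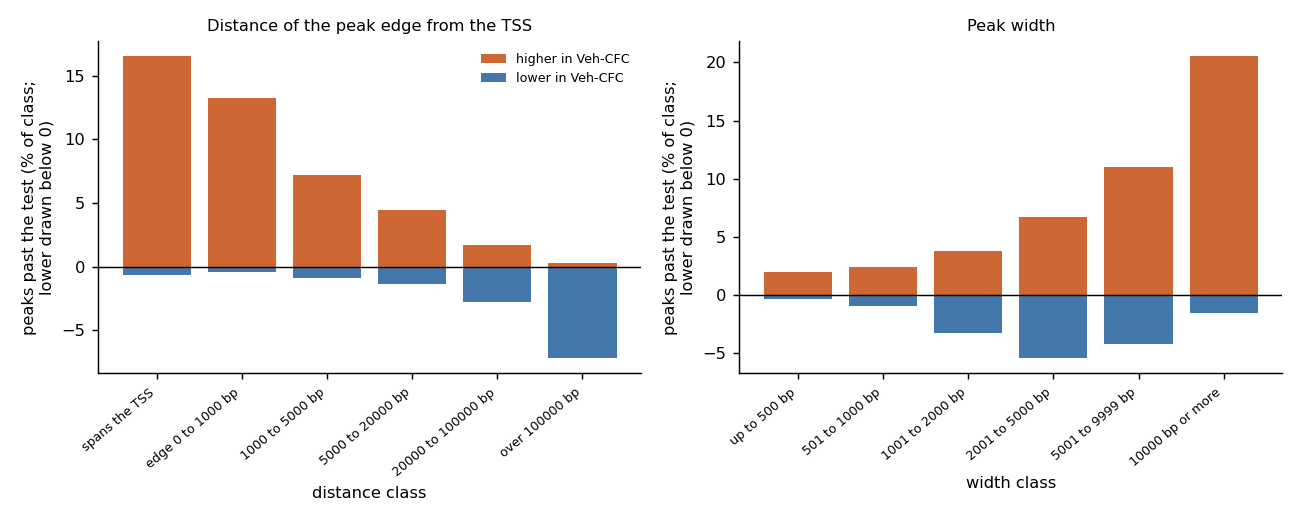
Bars give the percent of peaks in each class past the test (edgeR adjusted p under 0.05), higher in Veh-CFC drawn above 0 and lower drawn below 0, by distance of the peak's edge from the TSS (left) and by peak width (right). Rises go from 16.5% of peaks that span a TSS to 0.268% beyond 100000 bp.

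Within promoters the rise was larger on the side of the gene body than upstream, where rises also outnumbered drops. Of the promoter peaks lying wholly downstream of their TSS, 1660 of 8476 rose and 7 fell (median 0.37). Of those wholly upstream, 403 of 7104 rose and 54 fell (median 0.12), and those spanning the TSS lay between, with 976 of 5907 rising and 40 falling (median 0.23). The counts without Veh-CFC replicate 1 were 441 and 1 downstream, 65 and 7 upstream, and 252 and 4 across the TSS. Narrow peaks of up to 1000 bp kept the order, with medians of 0.43 downstream and 0.06 upstream. At 4404 genes with 1 peak on each side of the same TSS, the downstream change exceeded the upstream change at 3278 (74.4%), with medians of 0.37 and 0.09. Per library, the mean log2 CPM of the downstream minus the upstream peak over these genes was 0.55, 0.58 and 0.55 in Veh-Context and 0.92, 0.82 and 0.83 in Veh-CFC. The groups did not overlap and differed by 0.30 (exact permutation p = 0.1, the smallest possible). This split by side was made after the values had been seen. A TSS upstream of which a second gene starts in the other direction counts here for the gene named beside the peak.

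Opposite calls on the 2 sides of 1 TSS occurred at 2 genes, Rangap1 and Rbsn, named for that after their values had been seen. Rangap1 encodes the GTPase-activating protein of the nuclear transport GTPase Ran. Its upstream peak held 2.61, 3.53 and 3.16 CPM in Veh-Context and 0.642, 2.01 and 0.991 in Veh-CFC, and its downstream peak 1.94, 3.24 and 2.72 against 3.34, 5.83 and 4.39. Neither pair of groups overlapped, and the changes were -1.26 ± 0.33 (SE, edgeR adjusted p = 0.017) and 0.84 ± 0.26 (adjusted p = 0.038). At Rbsn, which encodes the endosomal protein rabenosyn, the changes were -1.07 ± 0.33 and 0.74 ± 0.22. The Rangap1 drop lost its call without Veh-CFC replicate 1 (adjusted p = 0.16), and the Rangap1 rise without Veh-Context replicate 1 (0.22) or 3 (0.062) or Veh-CFC replicate 2 (0.24). The Rbsn drop lost it without any 1 vehicle library other than Veh-CFC replicate 2 (0.061 to 0.25), and the Rbsn rise without replicate 1 or 2 of either vehicle group (0.062 to 0.18). Atp5g1, a gene of the membrane ring of ATP synthase, showed the same form around 2 neighbouring annotated start sites. The peak downstream (chr11:96073386-96075542) held 11.2, 7.07 and 12.5 CPM in Veh-Context and 15.7, 18.0 and 18.7 in Veh-CFC, without overlap, and rose by 0.72 ± 0.16 (adjusted p = 0.0048). The peak upstream (chr11:96075698-96076607), which covers most of the window printed earlier, held 6.79, 5.59 and 6.25 CPM and then 2.83, 3.82 and 3.26. It was lower in every Veh-CFC library and fell by 0.92 ± 0.22 on the log2 scale (adjusted p = 0.0094). The drop lost its call without Veh-Context replicate 1 (adjusted p = 0.070) or Veh-CFC replicate 1 (adjusted p = 0.080).

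The first of the promoter rises named by rule was at Mamld1. This gene, related to the Mastermind co-activators of Notch signalling, held 0.821, 1.03 and 2.06 CPM in Veh-Context and 11.8, 6.26 and 4.67 in Veh-CFC at a peak starting just after the window printed earlier (chrX:71050362-71052270). Every Veh-CFC library lay above every Veh-Context library, and the change was 2.48 ± 0.34 (SE, edgeR adjusted p = 0.00029). Neurod2, a bHLH factor of excitatory neurons, held 1.87, 0.589 and 2.13 CPM and then 10.8, 6.47 and 4.81 at an intronic peak (chr11:98328900-98329525), a change of 2.13 ± 0.28 (adjusted p = 3.6e-05). Intronic promoter peaks of Map1b, which encodes a microtubule-associated protein of growing axons (2.22 ± 0.39), and of Ncam1, a neural adhesion molecule (2.04 ± 0.31), rose as well, as did Mxi1, a partner of Max (1.81 ± 0.32), and the peak named for Mir7687 (1.82 ± 0.32). All 6 passed without any 1 of the 12 libraries, and in all 6 Veh-CFC replicate 1 was the highest library. Without that library, Mamld1 changed by 2.02 and Neurod2 by 1.76. This Neurod2 peak is not the gene's promoter peak of highest mean count. That other peak also rose past the test, by 0.40 without Veh-Context replicate 1 and 0.33 without Veh-CFC replicate 1. It lost its call without replicate 1 or 2 of either vehicle group, HDACi-Context replicate 2 or any 1 HDACi-CFC replicate (edgeR adjusted p = 0.054 to 0.31).

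A further pair of large promoter rises rested on more than 1 library. Brd2, a bromodomain reader of acetylated histones, held 3.14, 4.27 and 6.39 CPM in Veh-Context and 26.6, 17.0 and 8.49 in Veh-CFC. The groups did not overlap and the change was 1.91 ± 0.46 (edgeR adjusted p = 0.043). It did not pass without replicate 1 (adjusted p = 0.15) or 2 (0.096) of Veh-Context, Veh-CFC replicate 1 (0.13) or 2 (0.087), HDACi-Context replicate 2 (0.060) or any 1 HDACi-CFC replicate (0.057 to 0.063). Mex3b, an RNA-binding protein gene, changed by 1.89 ± 0.42 and lost its call without Veh-Context replicate 1 (0.092) or 2 (0.070) or Veh-CFC replicate 2 (0.055).

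Promoter drops were few and smaller. Rad21, a subunit of the cohesin ring that holds chromatin loops, held 5.00, 6.18 and 6.39 CPM in Veh-Context and 2.95, 2.86 and 2.27 in Veh-CFC at a peak upstream of its TSS (chr15:51991906-51992819). All Veh-CFC libraries were lower, and the change was -1.10 ± 0.24 (SE, edgeR adjusted p = 0.0053). Atf7ip, a partner of the histone methyltransferase Setdb1, held 5.38, 5.89 and 4.48 CPM and then 2.70, 2.54 and 1.98 at a peak that reaches into the window printed earlier (chr6:136517737-136518727), a change of -1.09 ± 0.24 (adjusted p = 0.0052). Both passed without any 1 of the 12 libraries, as did 9230102K24Rik (-1.06 ± 0.23). The other promoter drops named by rule were Ccdc150 (-0.99 ± 0.23), Usp40 (-0.97 ± 0.26), Olfr535 (-0.93 ± 0.21) and Kbtbd6 (-0.92 ± 0.21). Without Veh-Context replicate 1 their adjusted p-values were 0.055, 0.10, 0.065 and 0.097. With Veh-CFC replicate 1 left out, Ccdc150 (0.10) and Usp40 (0.11) lost their calls, and Usp40 also without Veh-CFC replicate 3 (0.051). Of these 8 drops, the Atp5g1 one included, 6 lay upstream of the TSS and those of 9230102K24Rik and Usp40 spanned it.

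Among the rises named by rule away from promoters, Slc39a3, a zinc transporter gene, held 1.12, 1.03 and 1.69 CPM in Veh-Context and 9.12, 4.14 and 4.11 in Veh-CFC at an intronic active enhancer (chr10:81031819-81033465). The groups did not overlap and the change was 2.11 ± 0.34 (SE, edgeR adjusted p = 0.00073). Introns of Srebf1, a regulator of lipid synthesis (1.68 ± 0.28), 1700061G19Rik (1.63 ± 0.31) and the orphan nuclear receptor Nr2f6 (1.60 ± 0.32) also held peaks that rose and passed without any 1 library. Peaks in introns of Map1s (1.92 ± 0.41) and Zbtb7a (1.81 ± 0.35) lost their calls without Veh-Context replicate 1 (adjusted p = 0.079 and 0.053), and Map1s also without Veh-Context replicate 2 (0.055). At Prkcsh (1.94 ± 0.50, adjusted p = 0.049) the call was lost in 8 of 12 such fits, those without Veh-Context replicate 1 or 2, Veh-CFC replicate 1 or 2, HDACi-Context replicate 2 or any 1 HDACi-CFC replicate (adjusted p up to 0.19).

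The first of the drops named by rule was at a peak between genes whose nearest named TSS, of 1810007C17Rik, was over 100000 bp away (chr12:49758092-49758995). It held 5.52, 5.74 and 4.78 CPM in Veh-Context and 1.80, 2.01 and 1.56 in Veh-CFC. All Veh-CFC libraries were lower, and the change was -1.55 ± 0.25 (SE, edgeR adjusted p = 0.0004). An intronic peak of Nlgn1, the gene of the excitatory synaptic adhesion protein neuroligin 1, held 7.02, 6.04 and 5.59 CPM and then 2.83, 2.33 and 2.41, a change of -1.31 ± 0.24 (adjusted p = 0.0011), 239163 bp from the TSS. The Nlgn1 promoter peak changed by 0.10 and did not pass. Distant peaks named for Fars2 (-1.45 ± 0.28), Hecw1 (-1.45 ± 0.25), Adgra3 (-1.41 ± 0.28), Osbpl8 (-1.39 ± 0.24), 4930590L20Rik (-1.34 ± 0.26) and Flrt3 (-1.28 ± 0.26) fell too. All 8 passed without any 1 of the 12 libraries. The name beside such a peak says which TSS is nearest and not which gene it acts on.

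A peak in repeat-rich sequence was higher as well. The peak chr2:98666115-98667446, 1199120 bp from the nearest named TSS (Lrrc4c), lies in a stretch of the mouse genome where reads of satellite repeats collect. It held 38.1, 73.0 and 25.6 CPM in Veh-Context and 173, 138 and 212 in Veh-CFC. Between the groups there was no overlap, and the change was 1.97 ± 0.47 (SE, edgeR adjusted p = 0.043). It lost its call in 10 of 12 fits that left out 1 library, those without Veh-Context replicate 2 and without HDACi-Context replicate 1 being the exceptions, with adjusted p up to 0.16. The level of this peak moved with the group, as the promoter share did, and its part in the results was not tested.

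At the gene level, with each gene represented by its promoter peak of highest mean count, 2318 of 14154 genes rose (16.4%) and 69 fell (0.487%), with a median of 0.26. With Veh-CFC replicate 1 left out, 628 rose and 7 fell, and without Veh-Context replicate 1, 642 and 7. Groups that did not overlap were found at 34% of genes in the higher and 3.79% in the lower direction. The gene lists below were chosen with earlier results of these data known, so they are descriptions read against these figures.

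Of 23 immediate early transcription factor genes with a promoter peak, 7 rose and none fell (median 0.43). With Veh-CFC replicate 1 left out, the count was 1 (Per1), and without Veh-Context replicate 1 it was 2 (Per1 and Nr4a2). Per1, a clock gene that neuronal activity and cAMP also induce, held 50.5, 44.9 and 56.3 CPM in Veh-Context and 85.4, 82.3 and 70.1 in Veh-CFC at a peak of 9181 bp over its start site (chr11:69095200-69104380). No Veh-CFC library lay within the Veh-Context range, and the change was 0.64 ± 0.12 (SE, edgeR adjusted p = 0.0014), and it passed without any 1 of the 12 libraries. Nr4a2, an orphan nuclear receptor needed for memory, held 2.09, 3.24 and 3.97 CPM and then 10.1, 5.51 and 5.80 upstream of its TSS (chr2:57115093-57116267), a change of 1.21 ± 0.24 (adjusted p = 0.0026; 0.069 without Veh-CFC replicate 1). Junb, an AP-1 subunit, was at 9.11, 9.27 and 9.19 CPM in Veh-Context and at 14.1, 12.3 and 13.9 in Veh-CFC just before its TSS (chr8:84978899-84980077). Its groups did not overlap and it rose by 0.54 ± 0.16 (adjusted p = 0.026). Junb did not pass without Veh-Context replicate 1 (0.10), 2 (0.052) or 3 (0.054) or Veh-CFC replicate 1 (0.13).

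The best-known activity-induced transcription factor genes did not pass at their promoter peak of highest mean count. Fos, the classic marker of recently active neurons, held 3.28, 5.30 and 4.63 CPM in Veh-Context and 7.71, 5.94 and 5.52 in Veh-CFC. Veh-Context and Veh-CFC values were fully separate, yet the change of 0.58 ± 0.20 had an edgeR adjusted p of 0.071, and it passed only without Veh-CFC replicate 3 (0.047). Fosb, an AP-1 subunit that accumulates with repeated activity, held 6.72, 9.13 and 13.9 CPM and then 19.3, 18.0 and 13.3. Its groups overlapped, and the change was 0.76 ± 0.23 (adjusted p = 0.053), which passed without replicate 3 of either vehicle group (0.0019 and 0.015) or HDACi-Context replicate 1 or 3 (0.0050 and 0.023). Egr1 changed by 0.24 ± 0.12 (0.21), Nr4a1 by 0.41 ± 0.20 (0.21) and Npas4, which neuronal calcium entry induces directly, by 0.01 ± 0.12 (0.96). Npas4 was at 31.7, 36.5 and 30.1 CPM in Veh-Context and 32.8, 33.1 and 32.7 in Veh-CFC. These Egr1 and Npas4 peaks were 13713 and 7006 bp wide, in the active enhancer state. They were centred at -7553 and -3731 bp from the TSS (negative is upstream). Peaks of both genes in the strong promoter state are given next.

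Second promoter peaks of the same genes were in part higher. The downstream Egr1 peak held 3.28, 6.62 and 5.44 CPM in Veh-Context and 11.7, 8.48 and 5.66 in Veh-CFC. It rose by 0.82 ± 0.23 (edgeR adjusted p = 0.029), with groups that overlapped, and lost its call without Veh-Context replicate 1 (0.20) or Veh-CFC replicate 1 (0.24) or 2 (0.072). The upstream Fosb peak rose by 0.72 ± 0.23 (adjusted p = 0.046) and lost its call in 8 of 12 fits that left out 1 library, among them those without Veh-CFC replicate 1 (0.39) and without Veh-Context replicate 1 (0.28). The other 6 were without Veh-Context replicate 2, Veh-CFC replicate 2, HDACi-Context replicate 2 or any 1 HDACi-CFC replicate. The smaller promoter peaks of Fos (0.82 ± 0.33, 0.12), Npas4 (0.64 ± 0.23, 0.072) and Nr4a1 (0.72 ± 0.37, 0.23) did not pass. Fos passed without Veh-Context replicate 2 (0.030), Nr4a1 without Veh-CFC replicate 3 (0.022), and Npas4 without Veh-Context replicate 2 (0.047), Veh-CFC replicate 3 (0.024) or HDACi-Context replicate 1 (0.040). Over all peaks named for a gene, at promoters or not, 3 of 12 rose at Nr4a1 (median 0.73). The counts were 1 of 6 at Egr1 (median 0.51) and 1 of 11 at Fosb (median 0.31). At Npas4 0 of 5 passed (median 0.64) and at Fos 0 of 23 (median 0.03).

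**Figure D4:**
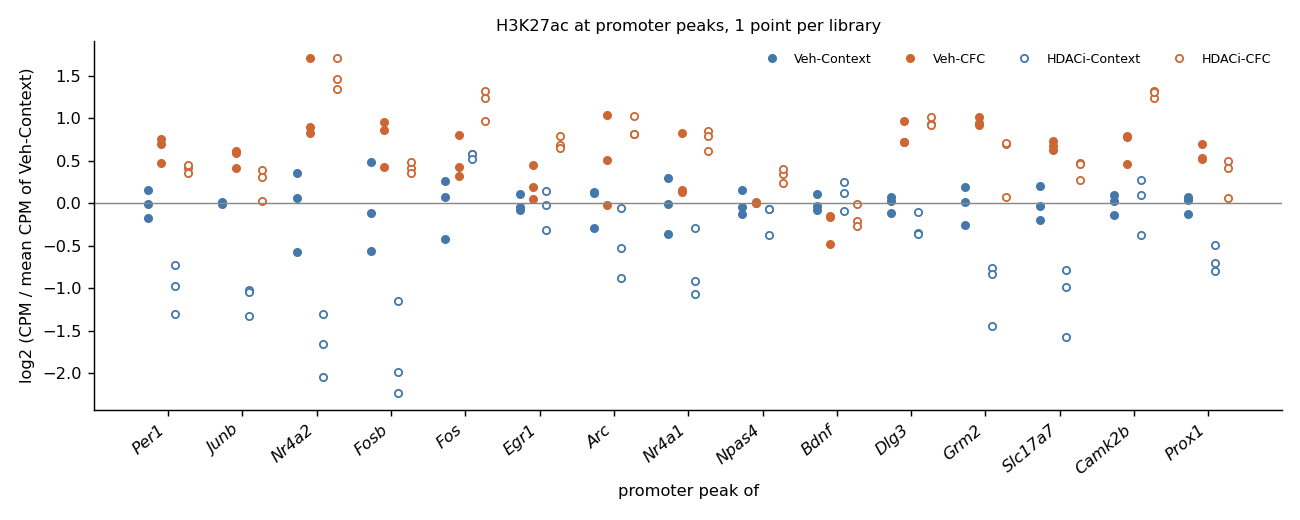
Each point is 1 library: log2 of its CPM at a promoter peak over the mean CPM of Veh-Context at that peak, for immediate early, synaptic and granule neuron genes; filled points are vehicle groups and open points CI-994 groups. At Per1, Junb, Dlg3, Grm2, Slc17a7, Camk2b and Prox1 the 3 Veh-CFC points lie above all Veh-Context points, while at Npas4 the groups overlap (0.01 ± 0.12). The Egr1, Arc and Npas4 peaks shown are wide peaks in the active enhancer state.

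Among immediate early effectors and feedback regulators, 4 of 20 rose and none fell (median 0.30), with 1 of 20 passing without either Veh-CFC replicate 1 (Dusp4) or Veh-Context replicate 1 (Plk3). Dusp4, a phosphatase that turns off MAP kinases, held 33.2, 40.6 and 40.5 CPM in Veh-Context and 57.8, 57.5 and 52.5 in Veh-CFC. All Veh-CFC libraries were higher, and the change was 0.56 ± 0.12 (SE, edgeR adjusted p = 0.0035; 0.061 without Veh-Context replicate 1). Gadd45g and Gadd45b, linked to DNA demethylation and repair, rose by 0.93 ± 0.20 and 1.05 ± 0.28. In both, the groups overlapped. Gadd45g lost its call without Veh-CFC replicate 1 (0.079) or Veh-Context replicate 1 (0.054), and Gadd45b without replicate 1 or 2 of either vehicle group (0.055 to 0.21). The fourth, Plk3, a stress-activated kinase, is outside the rule for named genes and was named after its value was seen. It rose by 0.92 ± 0.24 and lost its call without Veh-CFC replicate 1 (0.20) or Veh-Context replicate 2 (0.066). Arc, whose protein removes AMPA receptors from synapses, was read at an active enhancer peak of 11831 bp. It held 20.5, 27.4 and 27.1 CPM in Veh-Context and 51.5, 35.6 and 24.6 in Veh-CFC. Its groups overlapped, with Veh-CFC replicate 1 the highest and replicate 3 within the Veh-Context range, and the change of 0.59 ± 0.26 did not pass (0.20), though it did without Veh-CFC replicate 3 (0.0080). Homer1, a postsynaptic scaffold with an activity-induced short form, changed by 0.12 ± 0.13 (0.59).

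Late response genes had 7 of 21 rises and no drop (median 0.34). With Veh-CFC replicate 1 left out, there were 3 (Nrn1, Synpo and Spry2), and without Veh-Context replicate 1 there was 1 (Spry2). Spry2, a feedback inhibitor of growth factor signalling, held 32.7, 37.2 and 38.4 CPM in Veh-Context and 60.5, 53.7 and 54.1 in Veh-CFC. Between the groups there was no overlap, and the change was 0.64 ± 0.11 (SE, edgeR adjusted p = 0.00083). Synpo, an actin-associated protein of the spine apparatus, rose by 0.45 ± 0.10 over a peak of 44566 bp, and Nrn1, a neuritogenic membrane protein, by 0.45 ± 0.10. Without Veh-Context replicate 1 their adjusted p-values were 0.068 and 0.080. Bdnf, the activity-dependent neurotrophin, held 51.4, 44.9 and 46.4 CPM in Veh-Context and 34.2, 42.8 and 42.6 in Veh-CFC at its largest promoter peak. The Veh-CFC values were all lower, but the change of -0.26 ± 0.12 did not pass (0.18). None of the other 5 promoter peaks of Bdnf passed, and their changes lay between -0.23 and 0.20.

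In the list of glutamate receptors and of the postsynaptic density, the protein mesh under excitatory synapses, 18 of 41 genes rose (43.9%) and none fell (median 0.37). With Veh-CFC replicate 1 left out, 8 rose, and without Veh-Context replicate 1, 5. Dlg3, the scaffold SAP102, held 10.8, 9.42 and 10.4 CPM in Veh-Context and 20.0, 16.9 and 16.8 in Veh-CFC (chrX:100768376-100774613). Grm2, a metabotropic glutamate receptor of mossy fibre terminals, held 24.2, 20.0 and 27.3 CPM and then 45.3, 48.4 and 46.1 (chr9:106651056-106655892). In both, the groups did not overlap. The changes were 0.80 ± 0.14 and 0.95 ± 0.16 (SE, edgeR adjusted p = 0.001 and 0.0012), and each passed without any 1 of the 12 libraries.

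The same genes behaved otherwise away from their promoters. Over 1381 non-promoter peaks named for genes of that list, 18 rose and 89 fell (median -0.18), against 2.71% and 3.14% of all such peaks. For presynaptic vesicle release the promoters had 10 of 33 rises and no drop (median 0.26), with 5 rises left without Veh-CFC replicate 1 and 4 without Veh-Context replicate 1, and 633 other peaks had 5 rises and 44 drops (median -0.21). Extracellular matrix, adhesion and guidance genes had 5 of 33 promoter rises (15.2%, beside 16.4% of all genes) and no drop. Their promoter median was 0.26, as over all genes. Their 906 other peaks held 8 rises and 83 drops (median -0.26). GABA receptor and synthesis genes had 1 promoter rise of 15 (6.67%, median 0.09), also under the share of all genes. None was left without Veh-CFC replicate 1 or without Veh-Context replicate 1 (median 0.18 in each). Their 312 other peaks held 1 rise and 28 drops (median -0.24). These non-promoter peaks share genes and long introns, and no test sets the lists apart. Their counts per list are not given with a library left out. Over all non-promoter peaks, the 3315 rises and 3845 drops became 345 and 338 without Veh-CFC replicate 1.

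**Figure D5:**
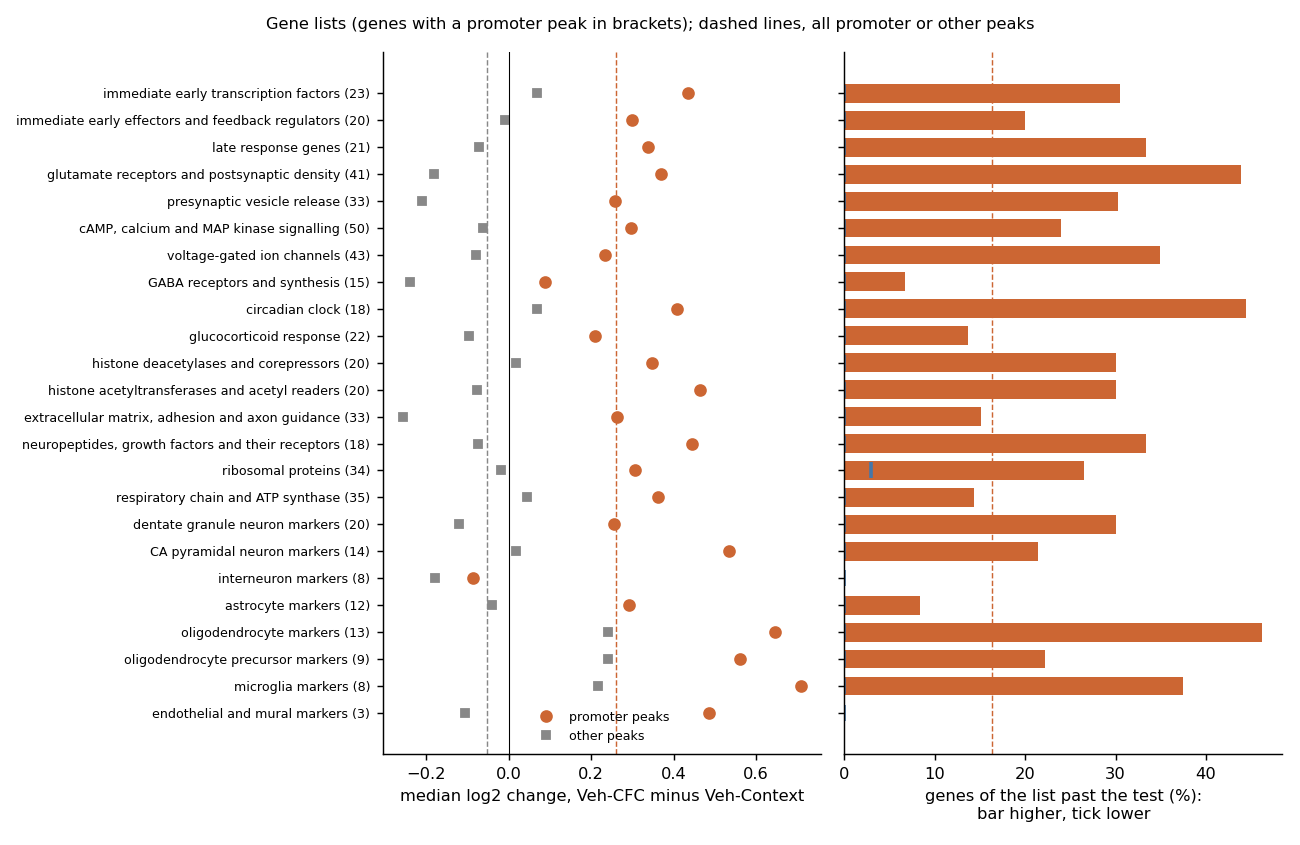
Left, the median log2 change (Veh-CFC minus Veh-Context) per gene list over 1 promoter peak per gene (circles) and over the other peaks named for the same genes (squares); right, the percent of genes of the list whose promoter peak passed the test, higher as bars and lower as ticks. Dashed lines give all genes or peaks: 0.26 and -0.05 on the left and 16.4% on the right; interneuron markers and GABA genes lie left of the promoter line, at -0.09 and 0.09.

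In the presynaptic list, Slc17a7, which loads glutamate into vesicles, held 72.9, 81.3 and 95.6 CPM in Veh-Context and 129, 138 and 133 in Veh-CFC. No Veh-CFC library lay within the Veh-Context range, and the change was 0.68 ± 0.13 (SE, edgeR adjusted p = 0.0032). Syt7, a calcium sensor of slow release, rose by 0.53 ± 0.11. Both passed without any 1 library.

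In cAMP, calcium and MAP kinase signalling 12 of 50 genes rose and none fell (median 0.30), with 6 left without either Veh-CFC replicate 1 or Veh-Context replicate 1. Camk2b, a subunit of the calcium/calmodulin kinase abundant at synapses, held 50.2, 56.4 and 58.8 CPM in Veh-Context and 96.0, 94.7 and 76.3 in Veh-CFC. Its groups did not overlap and the change was 0.69 ± 0.12 (SE, edgeR adjusted p = 0.0011). Camkk1, a kinase that activates other calmodulin kinases (0.58 ± 0.12), and Rasgrf1, a calcium-dependent Ras exchange factor (0.56 ± 0.12), rose as well, and all 3 passed without any 1 library. Among voltage-gated ion channels 15 of 43 rose and none fell (median 0.23), with 8 left without Veh-CFC replicate 1 and 4 without Veh-Context replicate 1. Kcnc4, a fast potassium channel, held 40.9, 39.6 and 38.4 CPM and then 62.4, 61.4 and 62.7. All Veh-CFC libraries were higher, and the change was 0.65 ± 0.12 (adjusted p = 0.0016). Kcnip2, a subunit of A-type potassium channels (0.61 ± 0.13), also passed without any 1 library.

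Among 18 circadian clock genes 8 rose (44.4%) and none fell (median 0.41), with 3 left without Veh-CFC replicate 1 (Cry2, Tef and Csnk1d) and 1 without Veh-Context replicate 1 (Rorb). Per1, also a clock gene, is not among the 18, being counted above with the immediate early genes. It passed without any 1 of the 12 libraries. Cry2, a repressor of the clock, held 69.4, 72.3 and 72.5 CPM in Veh-Context and 93.3, 96.3 and 95.4 in Veh-CFC. Veh-Context and Veh-CFC values were fully separate, and the change was 0.41 ± 0.10 (SE, edgeR adjusted p = 0.012; 0.083 without Veh-Context replicate 1). Bhlhe41, another repressor, rose by 0.67 ± 0.15 and Dbp, a clock output factor, by 0.57 ± 0.13. With Veh-CFC replicate 1 left out, their adjusted p-values were 0.055 and 0.16, and without Veh-Context replicate 1 they were 0.070 and 0.067. Glucocorticoid response genes, which stress hormones induce, had 3 of 22 rises and no drop (median 0.21). Their 13.6% of rises was under the 16.4% of all genes, whose median was 0.26. The rises left were 0 without Veh-CFC replicate 1 and 1 (Plin4) without Veh-Context replicate 1. Plin4, a lipid droplet protein, rose by 0.85 ± 0.17 (0.052 without Veh-CFC replicate 1). Gpd1, a glycerol-3-phosphate dehydrogenase (0.63 ± 0.17), and Ddit4, an inhibitor of mTOR signalling (0.35 ± 0.10), lost their calls without replicate 1 or 2 of either vehicle group (0.075 to 0.27), and Gpd1 also without HDACi-Context replicate 2 or HDACi-CFC replicate 1 or 2 (up to 0.066). Fkbp5, a co-chaperone of the glucocorticoid receptor, held 10.2, 8.24 and 10.6 CPM and then 11.4, 11.8 and 10.6, and its change of 0.20 ± 0.17 did not pass (0.49).

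Genes of the acetylation machinery itself were among those that rose. Histone deacetylases and corepressors had 6 of 20 rises and no drop (median 0.35), with 4 left without Veh-CFC replicate 1 and 2 without Veh-Context replicate 1. Hdac11, the class IV deacetylase, held 16.5, 12.4 and 18.4 CPM in Veh-Context and 32.6, 24.5 and 22.9 in Veh-CFC. Between the groups there was no overlap. Hdac11 rose by 0.73 ± 0.15 (SE, edgeR adjusted p = 0.0025) and passed without any 1 library, while Hdac7 (0.55 ± 0.13) did not pass without Veh-CFC replicate 1 (0.12) or Veh-Context replicate 1 (0.098). Histone acetyltransferases and acetyl readers had 6 of 20 rises and no drop (median 0.46), and none without either of these libraries. After Brd2 they were led by Mllt1 (0.89 ± 0.21), Kat2b (0.72 ± 0.20) and Brd7 (0.72 ± 0.19). The adjusted p-values of the 3 without Veh-CFC replicate 1 were 0.16, 0.20 and 0.15, and without Veh-Context replicate 1 0.10, 0.099 and 0.073. Kat2b also lost its call without Veh-Context replicate 3 (0.092) and Brd7 without Veh-Context replicate 2 (0.062).

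Among guidance and matrix genes Slit1, a guidance ligand, held 51.7, 48.6 and 57.8 CPM in Veh-Context and 92.2, 84.6 and 86.8 in Veh-CFC, and Nrp2, a semaphorin receptor of mossy fibres, held 18.4, 18.8 and 21.7 and then 32.2, 27.5 and 36.2. Neither pair of groups overlapped, and they rose by 0.73 ± 0.13 and 0.69 ± 0.13 (SE, edgeR adjusted p = 0.00082 and 0.0018). These were the 2 rises left without either Veh-CFC replicate 1 or Veh-Context replicate 1. The other 3 were the brain proteoglycans Ncan (0.46 ± 0.12) and Bcan (0.99 ± 0.27) and the cadherin Cdh8 (0.39 ± 0.12), the last 2 outside the rule for named genes and named after their values were seen. Bcan and Cdh8 lost their calls without replicate 1 or 2 of either vehicle group (0.052 to 0.15). Ncan lost its call without Veh-CFC replicate 1 (0.058) or 2 (0.060) or Veh-Context replicate 1 (0.12). Neuropeptide and growth factor genes had 6 of 18 rises and no drop (median 0.45), with 3 left without Veh-CFC replicate 1 (Adcyap1r1, Sstr2 and Ntrk3) and 2 without Veh-Context replicate 1 (Adcyap1r1 and Sstr2). The somatostatin receptor Sstr2 rose by 0.95 ± 0.19, the neurotrophin-3 receptor Ntrk3 by 0.46 ± 0.10 (0.055 without Veh-Context replicate 1) and the PACAP receptor Adcyap1r1 by 0.43 ± 0.10 (0.065 without Veh-Context replicate 2).

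Ribosomal protein genes had 9 rises and 1 drop among 34 (median 0.31), with 5 rises left without Veh-CFC replicate 1 and 4 without Veh-Context replicate 1. Rpl11, of the large ribosomal subunit, held 10.1, 11.0 and 12.8 CPM in Veh-Context and 22.9, 20.3 and 18.7 in Veh-CFC. Its groups did not overlap and the change was 0.86 ± 0.14 (SE, edgeR adjusted p = 0.0004), and Rpl7a (1.18 ± 0.21) and Rpl35 (0.96 ± 0.19) passed beside it without any 1 library. The drop was at Rps3, whose peak lies upstream of the TSS (-0.81 ± 0.26, adjusted p = 0.045), and it was lost in 8 of 12 fits, those without any Veh-Context replicate, Veh-CFC replicate 1 or 2, HDACi-Context replicate 2 or HDACi-CFC replicate 2 or 3 (0.055 to 0.21). Respiratory chain and ATP synthase genes had 5 of 35 rises (beside 16.4% of all genes) and no drop (median 0.36), with 2 rises without Veh-CFC replicate 1 and 1 without Veh-Context replicate 1. They were led by the downstream Atp5g1 peak. Among the others were Atp5o (0.64 ± 0.17), Sdhd (0.52 ± 0.13) and, outside the rule for named genes and named after its value was seen, Ndufb10 (0.57 ± 0.16). Ndufb10 lost its call without replicate 1 or 2 of either vehicle group (0.080 to 0.12). Sdhd lost its call without Veh-CFC replicate 1 (0.061) or Veh-Context replicate 1 (0.13), and Atp5o without Veh-Context replicate 1 or 2 or Veh-CFC replicate 2 or 3 (0.064 to 0.078).

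Markers of cell types moved unevenly with the group. Dentate granule neuron markers had 6 of 20 rises and no drop (median 0.26), with 4 left without Veh-CFC replicate 1 (Prox1, Plekha2, Bcl11b and Neurod1) and 5 without Veh-Context replicate 1. Prox1 held 158, 141 and 163 CPM in Veh-Context and 224, 221 and 249 in Veh-CFC over a domain of 22494 bp (chr1:190152741-190175234). No Veh-CFC library lay within the Veh-Context range, and the change was 0.58 ± 0.11 (SE, edgeR adjusted p = 0.0014). Bcl11b, a zinc finger factor of granule neurons, rose by 0.59 ± 0.11 and Plekha2 by 0.62 ± 0.13, and all 3 passed without any 1 library. None of the 8 interneuron markers with a promoter peak passed at an adjusted p under 0.05, and their median was -0.09 (0.04 without Veh-Context replicate 1 and 0.05 without Veh-CFC replicate 3). Their summed level was 90.4 to 102 CPM in Veh-Context and 89.5 to 107 in Veh-CFC.

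CA pyramidal neuron markers had 3 of 14 rises (median 0.53), with 1 (Nr2f2) left without either Veh-CFC replicate 1 or Veh-Context replicate 1. Their summed level was 131 to 150 CPM in Veh-Context and 198 to 256 in Veh-CFC. Nr2f2, a nuclear receptor also expressed by other cell types, held 2.46, 3.39 and 3.60 CPM in Veh-Context and 13.2, 8.38 and 7.64 in Veh-CFC. Its groups did not overlap, and it rose by 1.64 ± 0.22 (SE, edgeR adjusted p = 3.4e-05) and passed without any 1 library. Mpped1 (0.89 ± 0.25) and Dkk3 (0.59 ± 0.15) lost their calls without Veh-CFC replicate 1 (0.20 and 0.16) or Veh-Context replicate 1 (0.11 and 0.081), Mpped1 also without Veh-Context replicate 3 (0.088) and Dkk3 without Veh-Context replicate 2 (0.054).

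Glial markers, which NeuN-sorted nuclei should lack, carried signal in both groups. Their summed levels were higher in Veh-CFC, where promoter peaks in general were higher too: 16.4% of all genes rose, with a median of 0.26. Oligodendrocyte markers had 6 of 13 rises and no drop (median 0.65), 1 (Mag) without Veh-CFC replicate 1 (median 0.34) and 2 (Mag and Myrf) without Veh-Context replicate 1, and their summed level was 157 to 171 CPM in Veh-Context and 202 to 270 in Veh-CFC. Mag, a myelin glycoprotein gene, held 2.46, 1.91 and 3.45 CPM and then 9.63, 6.47 and 4.95. Veh-Context and Veh-CFC values were fully separate, and the change was 1.37 ± 0.24 (SE, edgeR adjusted p = 0.0009). Oligodendrocyte precursor markers had 2 of 9 rises (22.2%, median 0.56), Olig2 (1.52 ± 0.47) and Matn4 (0.61 ± 0.18). Olig2 lost its call without any 1 Veh-Context replicate, Veh-CFC replicate 1 (0.54) or HDACi-CFC replicate 3, and Matn4 without Veh-Context replicate 1 or 2 or any 1 Veh-CFC replicate (0.064 to 0.078). Their summed level was 35.3 to 36.7 CPM in Veh-Context and 43.5 to 64.2 in Veh-CFC. Microglia markers had 3 of 8 rises (median 0.71), none without Veh-CFC replicate 1 and 1 (Sall1) without Veh-Context replicate 1, at a summed level of 35.7 to 41.0 CPM and then 46.3 to 62.3. Sall1, a factor of microglial identity, held 1.79, 1.32 and 1.69 CPM and then 6.55, 3.18 and 3.54, a change of 1.41 ± 0.30 (adjusted p = 0.0043; 0.11 without Veh-CFC replicate 1). The astrocyte list had 1 rise among 12 (8.33%, median 0.29), at a summed level of 122 to 150 and then 165 to 171 CPM. The rise was at Aldoc (0.62 ± 0.16), with adjusted p = 0.16 without Veh-CFC replicate 1. It was 0.055 without Veh-Context replicate 1 and 0.059 without Veh-Context replicate 2. Of 3 endothelial and mural markers with a promoter peak none passed. Other peaks of the oligodendrocyte, precursor and microglia genes had medians of 0.24, 0.24 and 0.22, against -0.05 over all other peaks. Those of the astrocyte genes and of the endothelial and mural genes had medians of -0.04 and -0.11. The share of these cells and its part in the results above was not tested.

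The same contrast in mice given CI-994 compared other libraries, which entered the vehicle fit only through the shared estimate of spread. There 29069 peaks rose (20.2%) and 25571 fell (17.8%). Of the 6354 peaks that rose under vehicle, 6302 had a positive change under CI-994 and 5722 (90.1%) were called higher there, with a median of 1.13. Of the 3946 that fell under vehicle, 3882 had a negative change and 3068 (77.7%) were called lower, with a median of -0.62. No peak was called in opposite directions. Over all 144014 peaks the 2 changes correlated at Pearson r = 0.72 and Spearman rho = 0.69, a correlation across peaks, which are not independent replicates. Values side by side were 0.64 ± 0.12 under vehicle and 1.40 under CI-994 at Per1, 1.21 and 3.15 at Nr4a2, 0.58 and 0.63 at Fos, 0.01 and 0.49 at the wide Npas4 peak, and -0.26 and -0.26 at Bdnf.

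Tested directly, the shock effect under vehicle differed from that under CI-994 at 50 peaks (0.0347%), lower under vehicle at 49 (0.034%) and higher at 1 (0.000694%), and 16531 peaks had an unadjusted p under 0.05. DESeq2 called 3 peaks higher and 992 lower. The lower count was 3477 without HDACi-Context replicate 1, 2363 without Veh-CFC replicate 1, 834 without Veh-Context replicate 1 and 0 to 9 without any 1 of the other 9 libraries. At 45 of the 50 both shock effects were above 0. Of the genes described above, Nr4a2 and Dbp were among the 50, with differences of -1.95 ± 0.37 and -1.02 ± 0.19 (SE, edgeR adjusted p = 0.037 for both).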

How the data were processed

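Low-input H3K27ac ChIP-seq was counted over 1 common set of peaks. The authors deposited raw read counts per peak for 12 libraries, with each peak's annotation and chromatin state. Per the submitters' processing notes, the tools were MACS2, HOMER 4.11, DiffBind 2.16.2, Bowtie2 2.3.5, DESeq2 1.28.1, Trimmomatic 0.38 and SAMtools 1.9, on the build mm10, with no role given. Column names give no antibody and were taken as H3K27ac. The smallest deposited count was 1 in every column. Input libraries were not analysed here.

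The counts of all 12 libraries were fitted with edgeR 4.0.16 (R 4.3.3; TMM factors, filterByExpr with a minimum count of 10, robust quasi-likelihood F test, Benjamini-Hochberg threshold 0.05), which removed 140 of 144154 peaks. The script was tested on simulated data. CPM used TMM-adjusted library sizes; standard errors were taken from the F statistic. Library summaries used a two-sided exact permutation test. The members and gene lists were chosen with earlier results of these data known. Peaks were named by rule: (a) among peaks past the test, with groups that did not overlap and a mean of at least 3.26 CPM (the median), the 8 largest rises and 8 largest drops at promoters and elsewhere, 1 per gene; (b) up to 3 members per list and direction by adjusted p; (c) Fos, Fosb, Junb, Egr1, Npas4, Nr4a1, Arc, Homer1, Bdnf, Per1 and Fkbp5 whatever their values; (d) the 5 smallest adjusted p-values for the difference between vehicle and CI-994. Alternatives were DESeq2 1.42.0, other scalings and filters, the vehicle libraries alone, a replicate block, and leaving out each library. Promoter windows matched 75.3% of genes, under the 80% needed, so motifs were not compared across genes. Some genes that the rule names are not reported here.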

Additional observations from a re-analysis of the deposited data

Results flagged for a closer look

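The effect of shock differed between vehicle and CI-994 at 50 peaks by edgeR's test of the difference itself. No peak passed that test without Veh-Context replicate 3 or with a mean count of at least 50, so these differences lost their calls there. Differences (vehicle minus CI-994, log2) were -1.32 at Naa38, a subunit gene of a protein acetyltransferase, -1.15 at Ppp6r1, a phosphatase subunit gene, -1.15 at Nat14 and -0.98 at Wscd2. Under vehicle the changes themselves were 0.39 ± 0.14 at Naa38, 0.07 ± 0.14 at Ppp6r1, 0.58 ± 0.14 at Nat14 and 0.04 ± 0.12 at Wscd2 (SE). Of these 4, Nat14 passed the test under vehicle (edgeR adjusted p = 0.0080), and it lost that call without replicate 1 of Veh-CFC (0.057) or of Veh-Context (0.078).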

How the results depend on the processing

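No value past its test changed sign under the alternatives run, whereas the wide Npas4 peak, at 0.01, was between -0.03 and -0.01 with library totals, loess offsets or Veh-Context replicate 1 or 3 left out. Library totals gave 5364 peaks higher and 5547 lower. Over all results and settings, 3355 values were on the same side of the threshold or within the stated margin, 246 lost a call, 13 gained one and 353 moved. For Veh-CFC against Veh-Context, DESeq2 called 3839 peaks higher and 2193 lower, and the 6 vehicle libraries fitted alone gave 2363 lower. Leaving out 1 library gave 1103 to 9153 higher and 350 to 5395 lower. Strong promoter rises were 1300 with DESeq2 and 474 to 2574 with 1 library left out. The promoter share difference was 1.61 percentage points when only peaks spanning a TSS counted, and 3.40 to 4.31 with 1 library left out. Leave-one-out ranges were 1.10 to 1.53 points for the 1000 highest peaks, 0.25 to 0.33 for the promoter minus other log2 level and -5.24e+06 to -1.71e+06 for total counts. Under CI-994, a mean count of at least 50 left 14018 higher and 13961 lower, DESeq2 gave 15699 lower, and leaving out 1 library gave 22272 to 30689 and 16401 to 27767. The difference between the arms gave 3 higher and 992 lower with DESeq2, 5 and 95 with RLE factors, 0 and 1 with library totals or loess offsets, 0 and 0 with a mean count of at least 50, and 0 to 254 and 0 to 3477 with 1 library left out. The cause of these shifts was not tested.

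Replicate numbers did not pair the vehicle libraries: same-numbered deviations correlated at -0.215, -0.04 and -0.156. With a replicate block, 6445 peaks were higher and 4453 lower, and the difference between the arms had 3 and 86. With the 6 vehicle libraries and a replicate block, an alternative chosen after seeing the data, 2234 were higher, 493 lower and 720 strong promoters higher.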
